A study of Mus musculus with 24 samples.

Results

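Microvessels of the ipsilateral hemisphere were compared with microvessels of the contralateral hemisphere of the same mice 7 days after transient middle cerebral artery occlusion (tMCAO), a filament model of stroke with reperfusion. The comparison rested on 6 of the 24 libraries of the study, 3 per hemisphere, which were chosen by their labels and paired by the pool number in the library titles. All mice were male C57BL/6J animals of 10 to 12 weeks, and all underwent surgery under anaesthesia. In tMCAO mice the right middle cerebral artery was closed for 60 min by a filament, after the right common and external carotid arteries had been ligated. In sham mice the filament was withdrawn at once, and the methods text gives no other difference. The contralateral hemisphere came from the same stroke animals, so that it shared the anaesthesia and any systemic response with the ipsilateral one. The carotid ligation was on the ipsilateral side alone. Between the hemispheres of stroke mice, its effect and that of the occlusion cannot be told apart. Each library held the microvessels of 3 pooled hemispheres, and infarcted and spared tissue of a hemisphere were not separated. As references, the 6 libraries of sham mice of 7 days and the 6 libraries of tMCAO mice of 24 h were used.

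Brain microvessels are tubes of endothelial cells that are sealed by tight junctions, wrapped by pericytes and a basement membrane and covered by the endfeet of astrocytes. With neighbouring neurons and microglia they form the neurovascular unit. After an ischaemic stroke, leukocytes enter through these vessels, phagocytes clear dead tissue and lipid debris, and the vessels grow and rebuild their matrix over days to weeks. Isolated microvessels carry attached endfeet, nerve endings and blood cells, so that their RNA also reports on these neighbours.

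The deposited values were normalized counts, that is whole-number read counts after scaling each library to a common depth. The 24 libraries held between 15924780 and 18787932 normalized counts each. Log2 values after adding 1 were used for all comparisons, and a fold change on this scale understates the change of genes with few counts. Endothelial markers defined the preparation, with a mean of 14.19 to 14.56 on the log2 scale over 12 genes in the 6 libraries and a difference between hemispheres of 0.20. The claudin Cldn5 was at 73846, 60700 and 72163 normalized counts in the ipsilateral libraries of pools 1 to 3 and at 43561, 47962 and 61260 in the contralateral ones. Pericyte and mural, fibroblast and smooth muscle markers differed by -0.04, 0.00 and -0.30. The contralateral library of pool 1 stood apart from the other contralateral libraries of 7 days after tMCAO. Its neuron panel of 14 genes was at 10.89, against 9.25 and 9.36 in pools 2 and 3 and 8.38 to 9.95 in the other control groups. Its astrocyte panel was at 11.06 against 9.51 and 9.80, and its oligodendrocyte and oligodendrocyte precursor panels were also the highest of the 6 libraries. The chemokine Ccl2, named after its values were seen, read 562 in this library and 18 and 22 in the other contralateral ones. The part of this library in the results was not tested beyond leaving it out, and results are therefore also given without pool 1.

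**Figure D1:**
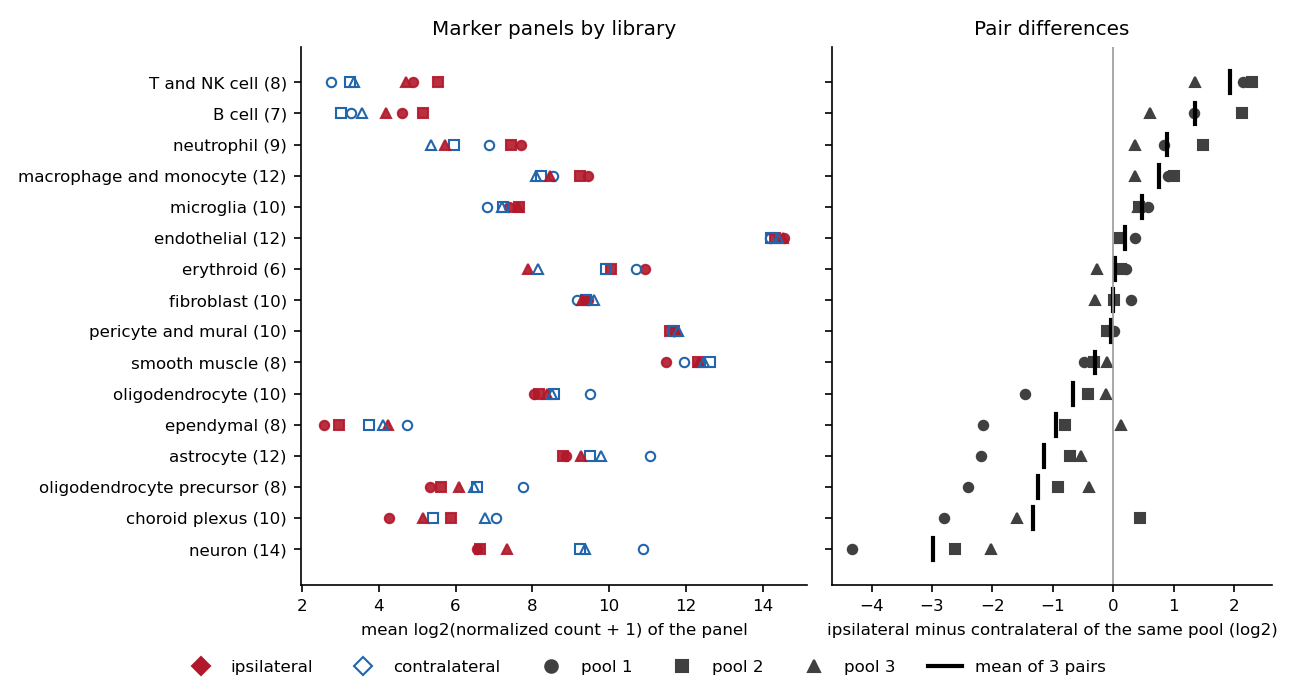
Left, mean log2(normalized count + 1) of each cell type marker panel in the 6 libraries of 7 days after tMCAO (number of genes in parentheses; filled, ipsilateral; open, contralateral; symbol, mouse pool). Right, the ipsilateral minus the contralateral value of each pool, with a bar at the mean of the 3 pairs. The neuron panel was lower ipsilaterally in all 3 pools with differences from -4.32 to -2.02, lymphocyte panels were higher in all 3 pools, and the endothelial panel moved by 0.11 to 0.37.

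Of the 15982 genes tested, 681 genes (4.26%) were higher and 1768 genes (11.1%) were lower in ipsilateral microvessels. A gene was called when the limma test gave an adjusted p under 0.05 and the fold change was above 1.5-fold in either direction, by the log2 limit of the study. Between the hemispheres of sham mice of 7 days 0 genes were called by limma, and 980 genes (6.13%) had an unadjusted p under 0.05, against 5638 (35.3%) after tMCAO. The median log2 fold change of all tested genes was 0.03. Without pool 1, 462 genes were higher, 418 of them among the 681, and 1086 were lower, 1065 of them among the 1768.

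**Figure D2:**
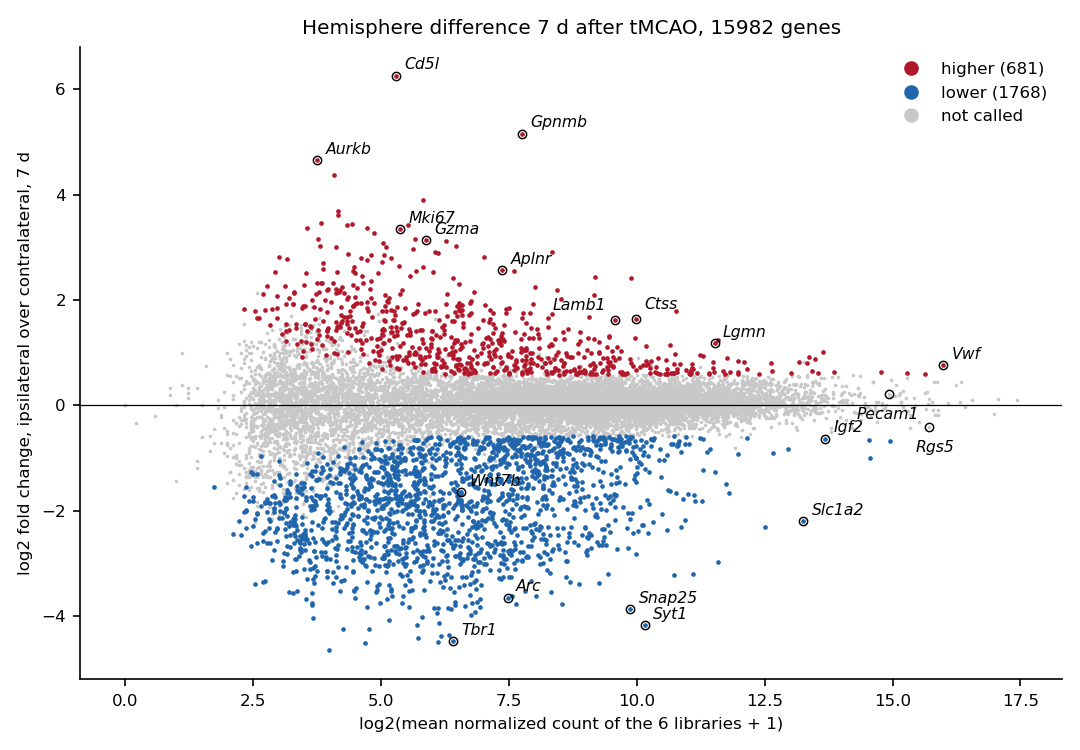
Log2 fold change of ipsilateral over contralateral microvessels (y axis) against the log2 mean normalized count of the 6 libraries (x axis) for 15982 genes. Red points are the 681 genes called higher and blue points the 1768 genes called lower; endothelial genes such as Pecam1 lay near 0 at high levels.

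The genes with the largest increases included genes known from macrophages, dividing cells and lymphocytes. Cd5l, a secreted survival factor of macrophages that binds lipids, was at 99, 59 and 73 normalized counts in the ipsilateral libraries of pools 1 to 3. It was listed at 0 in all 3 contralateral libraries (adjusted p = 2.54e-05). Ipsilateral Cd5l values were 0 to 4 in sham mice of 7 days and 0 to 2 in tMCAO mice of 24 h. Gpnmb, a transmembrane glycoprotein of phagocytes that have taken up debris, read 553, 310 and 396 ipsilaterally and 20, 5 and 11 contralaterally. Its log2 fold change was 5.15 ± 0.66 (SE of the limma fit, adjusted p = 0.000158). This SE, given after ± for all log2 fold changes, uses a variance pooled over all 24 libraries and moderated across genes. It does not measure the spread of the 3 stroke pairs, which can be wider. The hemispheres do not overlap in either gene, which the choice of these genes required. Cd5l lies at chr3:87357881-87371073 and Gpnmb at chr6:49036615-49070929 of mm10, both on the plus strand.

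The other genes of this group included Treml4 and Fcgr4, an immune receptor and an Fc receptor of myeloid cells, and Mki67, a marker of dividing cells. Gzma, a protease of cytotoxic lymphocytes, and Spn, a surface protein of leukocytes that is not limited to lymphocytes, were also among them. The rest were Wisp2, Dapk2, H19, AA467197 and Gm6058. Gm6058 is annotated as a processed pseudogene, whose reads may belong to a copy elsewhere. Treml4 was at 92, 113 and 44 normalized counts ipsilaterally and at 4, 5 and 12 contralaterally (log2 fold change 3.42 ± 0.49). Spn was at 120, 199 and 93 against 11, 15 and 17 (3.12 ± 0.32). H19, a long non-coding RNA of the imprinted Igf2 locus, was at 78, 36 and 59 against 7, 3 and 8 (3.08 ± 0.70). Igf2 itself, a growth factor of the leptomeninges and vessels, moved the other way, from 12913, 16001 and 19370 contralaterally to 10517, 10020 and 10236 ipsilaterally (-0.63 ± 0.12, adjusted p = 0.00175). The Igf2 call was lost without pool 3, without the mouse pool as a block and under median centring of the libraries.

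**Figure D3:**
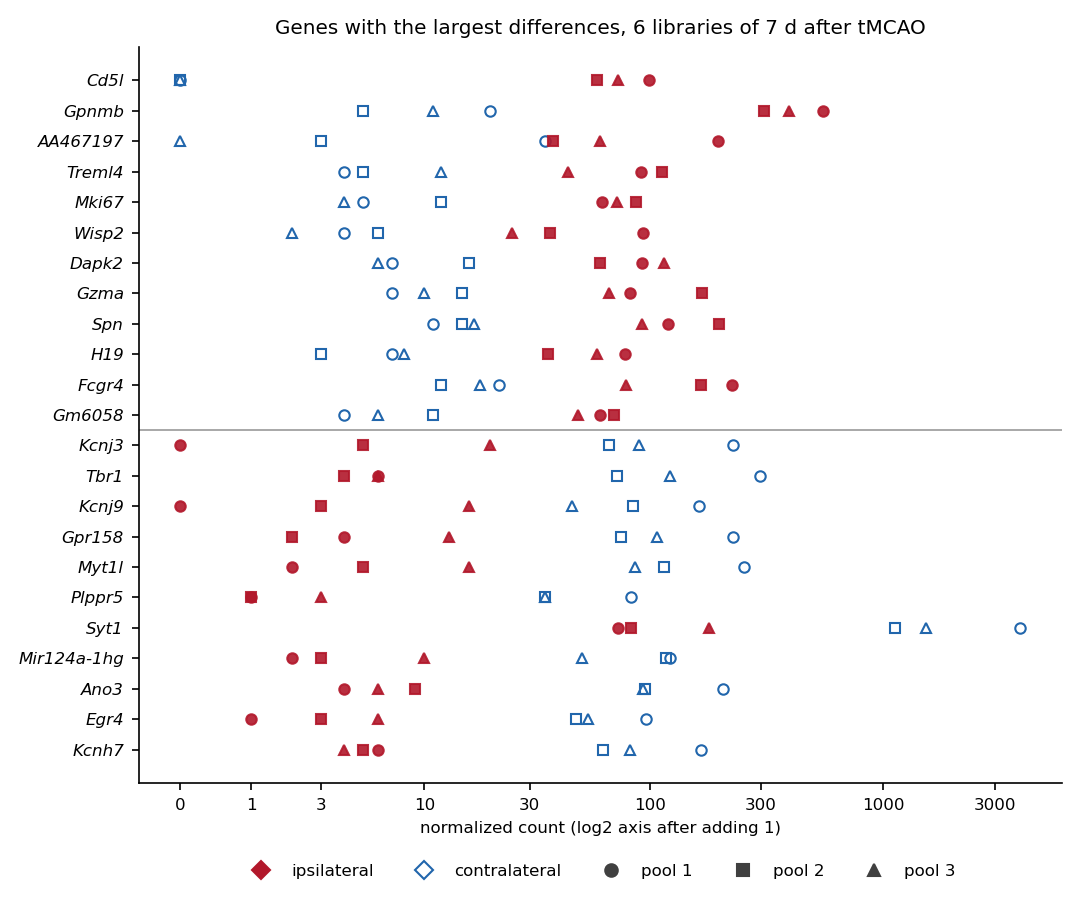
Normalized counts (log2 axis after adding 1) in the 6 libraries for the 12 genes with the largest increase, upper part, and the 11 with the largest decrease, lower part, among called genes with a mean of at least 50 in the higher group and no overlap of the hemispheres. Filled symbols are ipsilateral, open symbols contralateral, and the symbol gives the pool. In the lower part the contralateral library of pool 1 was the highest in all 11 genes.

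The 11 genes with the largest decrease are known from neurons. Tbr1, a transcription factor of cortical projection neurons, was at 6, 4 and 6 normalized counts ipsilaterally and at 297, 72 and 122 contralaterally. Its log2 fold change was -4.47 ± 0.30 (adjusted p = 3.62e-06). Syt1, the calcium sensor of synaptic vesicle release, was at 73, 83 and 180 against 3856, 1125 and 1523 (-4.17 ± 0.38, adjusted p = 2.45e-05). Its log2 differences in the single pairs were -5.704, -3.745 and -3.074 for pools 1 to 3. Kcnj3 and Kcnj9, which encode G protein-gated potassium channels, were listed at 0 in the ipsilateral library of pool 1 and were at 46 to 229 in the contralateral libraries. The others were Gpr158, Myt1l, Plppr5, Mir124a-1hg, Ano3, Egr4 and Kcnh7, with log2 fold changes of -4.38 to -4.02. Tbr1 lies at chr2:61804453-61814114 (plus strand) and Syt1 at chr10:108497650-109010982 (minus strand) of mm10.

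Neuronal gene lists were lower as a whole. Of 14 neuron markers 13 fell, and the median log2 fold change was -3.08. Snap25, a vesicle fusion protein, was at 83, 104 and 127 normalized counts ipsilaterally and at 3194, 1017 and 1088 contralaterally (-3.87 ± 0.32). The neuronal nuclear protein Rbfox3 was at 44, 42 and 67 against 544, 222 and 238 (-2.60 ± 0.25). The member that was not called was Stmn2, a regulator of axonal microtubules, at 1769, 2095 and 1944 against 2453, 2493 and 2445 (-0.35 ± 0.09, adjusted p = 0.0118). Its level was thus much closer between the hemispheres than that of the other 13. Without pool 1 the same number of 13 markers was called. In bulk RNA, fewer cells or nerve endings of a type and less RNA per cell cannot be told apart.

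The receptors and channels of synapses followed the same order. Of 31 ionotropic glutamate and GABA receptor genes 28 fell, with a median log2 fold change of -2.48. Grin2a, an NMDA receptor subunit, was at 9, 10 and 18 normalized counts ipsilaterally and at 357, 143 and 142 contralaterally (-3.93 ± 0.36). Gria2, an AMPA receptor subunit, was at 13, 23 and 35 against 308, 145 and 150 (-3.05 ± 0.33). In both genes every ipsilateral library was below every contralateral one. Of 32 metabotropic transmitter receptor genes 26 fell (median -1.75), among them the dopamine receptor Drd2 and the cannabinoid receptor Cnr1 with log2 fold changes of -3.54 and -3.20. Npy2r, a neuropeptide Y receptor, was listed at 0 in all 3 ipsilateral libraries and was at 22, 4 and 8 contralaterally. Of 41 voltage-gated and related channel genes 30 fell (median -2.57). Without pool 1, these 3 counts were 23, 18 and 27.

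Presynaptic and postsynaptic genes were reduced to a like extent. Of 32 genes of synaptic vesicles and the active zone 30 fell (median -2.44). The active zone protein Pclo was at 9, 16 and 21 normalized counts ipsilaterally and at 413, 125 and 146 contralaterally, and Sv2b, a vesicle glycoprotein, at 22, 22 and 61 against 712, 217 and 319. Of 28 genes of postsynaptic scaffolds and striatal signalling 26 fell (median -2.35). Arpp21, a cAMP-regulated phosphoprotein of the striatum, was at 29, 21 and 30 against 496, 262 and 286 (-3.61 ± 0.22). Tac1, the precursor of substance P, was at 2, 3 and 5 against 103, 27 and 35 (-3.50 ± 0.40). Without pool 1, 28 and 21 genes of these lists were called. Among 26 immediate early genes 4 fell, not far from the share of 11.1% of all tested genes, and the list median was -0.03. The 4 were Egr4, Arc, Npas4 and Egr3, all induced by neuronal activity. Arc, which regulates AMPA receptor traffic at synapses, was at 12, 33 and 29 ipsilaterally and at 552, 254 and 184 contralaterally (-3.65 ± 0.51). Myc was the member of this list that rose (0.93 ± 0.28). The calls of Npas4, Egr3 and Myc were lost without pool 1.

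Astrocytes and the oligodendrocyte lineage showed smaller and less even decreases. Of 12 astrocyte markers 7 fell (median -1.30), and 6 did so without pool 1. The astrocyte panel differed by -1.15 between the hemispheres with all pools and by -0.62 without pool 1. The glutamate transporter Slc1a2 was at 2927, 2742 and 4007 normalized counts ipsilaterally and at 28183, 9572 and 11358 contralaterally (-2.19 ± 0.28, adjusted p = 0.000156). The gap junction protein Gjb6 was at 204, 180 and 266 against 1251, 422 and 684 (-1.73 ± 0.21). Gfap, the filament of reactive astrocytes, was not called, with 3453, 3934 and 5327 against 6583, 1981 and 2349 (0.41 ± 0.44, adjusted p = 0.55). In pools 2 and 3 its ipsilateral value was the higher of the pair, and in pool 1 the lower. The water channel Aqp4 of the endfeet was at 161, 217 and 194 against 828, 287 and 270 and missed the threshold (-1.08 ± 0.41, adjusted p = 0.078).

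Of 30 genes of endfeet and reactive astrocytes 10 fell and 2 rose, Timp1 and Cd44, and without pool 1 5 fell. Of 8 markers of oligodendrocyte precursors 6 fell (median -1.57), and 4 did so without pool 1. Olig2, a lineage transcription factor, was at 6, 9 and 17 normalized counts ipsilaterally and at 107, 37 and 31 contralaterally (-2.24 ± 0.40). Of 10 oligodendrocyte markers 3 fell, Mog, Mag and Aspa, and 1 of them was called without pool 1. Leaving out pool 1 moved the panel difference from -1.24 to -0.66 for precursors and from -0.67 to -0.27 for oligodendrocytes. The myelin gene Mbp, among the most abundant of the list, was at 46486, 60108 and 60887 against 87714, 58271 and 48123 (-0.18 ± 0.29, adjusted p = 0.708). Its hemispheres overlapped, as they did for Mobp, a further myelin gene named after its values were seen (0.03 ± 0.31). Choroid plexus markers had a panel difference of -1.32 with pool 2 in the other direction (0.45), and of -0.57 without pool 1. Ttr, the transthyretin of choroid plexus, was their only member called (-2.31 ± 0.76, adjusted p = 0.042), a call lost without pool 1. The ependymal panel differed by -2.15, -0.79 and 0.13 in pools 1 to 3.

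Genes of myeloid cells rose in several lists. Of 26 genes of Fc receptors and myeloid activation 18 rose and 0 fell (median 1.21), and 16 rose without pool 1. Fcgr4 was at 226, 167 and 79 normalized counts ipsilaterally and at 22, 12 and 18 contralaterally (3.02 ± 0.31, adjusted p = 4.37e-05). The Src family kinase Fgr had a log2 fold change of 1.94 ± 0.26, and Rac2, a GTPase of the phagocyte oxidase, 1.85 ± 0.23. All 3 ipsilateral libraries were above all contralateral ones for Fgr and Rac2, and pool 3 had the lowest ipsilateral value in each.

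Genes of phagocytes that handle lipids came next. Of 24 members 12 rose (median 0.62), and 10 rose without pool 1. After Cd5l and Gpnmb the largest increases were those of Cst7, a cystatin of microglia and macrophages, and Itgax, the integrin chain CD11c. Cst7 was at 29, 28 and 37 normalized counts ipsilaterally and at 2, 5 and 0 contralaterally (3.61 ± 0.68), and Itgax at 98, 94 and 68 against 6, 15 and 11 (2.97 ± 0.31). Trem2, the lipid receptor of microglia and macrophages, named after its values were seen, was at 314, 256 and 408 against 88, 93 and 127 (1.65 ± 0.17, adjusted p = 4.63e-05). Apoe and Spp1, highly expressed members of the same list, had log2 fold changes of -0.18 and 0.15 and were not called.

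Of 25 genes of lysosomes and cathepsins 9 rose (median 0.50), and 5 rose without pool 1. The cathepsin Ctss was at 1588, 1458 and 1525 normalized counts ipsilaterally and at 462, 451 and 557 contralaterally (1.64 ± 0.10, adjusted p = 2.4e-06). The protease Lgmn was at 5103, 3320 and 3864 against 2086, 1564 and 1702 (1.19 ± 0.09), and Ctsd at 13082, 9695 and 12414 against 6383, 5773 and 7714 (0.82 ± 0.10). The spread of Ctss within a hemisphere was far below the difference between the hemispheres.

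Markers of single leukocyte types moved unevenly. Of 10 microglia markers 3 rose, among them Cx3cr1 and Fcrls, whereas the homeostatic markers Tmem119, P2ry12 and Sall1 were not called (0.34, 0.16 and -0.35). Cx3cr1, the fractalkine receptor, was at 419, 536 and 537 normalized counts ipsilaterally and at 119, 171 and 158 contralaterally (1.74 ± 0.16). Of 12 macrophage and monocyte markers 6 rose, with the largest increase in Plac8, at 313, 263 and 95 against 56, 14 and 26 (2.81 ± 0.33). Ccr2, the receptor that guides monocytes into tissue, was at 258, 289 and 54 against 77, 46 and 38 (1.62 ± 0.37), and its call was lost without pool 2. Markers of perivascular macrophages did not rise, with Cd163 at -0.19 and Mrc1 at -0.56 ± 0.17 (adjusted p = 0.0306), the latter with all ipsilateral libraries below all contralateral ones but inside the fold limit.

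Of 9 neutrophil markers 7 rose, and the hemispheres overlapped in all of them. S100a9 was at 1927, 1131 and 324 normalized counts ipsilaterally and at 923, 413 and 215 contralaterally (1.03 ± 0.15). Pool 1 was the highest and pool 3 the lowest in both hemispheres, and the erythroid panel had this order too, at 10.93, 10.05 and 7.89 ipsilaterally and 10.71, 9.92 and 8.15 contralaterally. The summed counts of the 6 erythroid markers ranged from 3738 to 35236 ipsilaterally and from 4416 to 29208 contralaterally, and those of the neutrophil markers from 864 to 5005 and from 576 to 2401. Their part in the neutrophil result was not tested. Without the mouse pool as a block 0 of these 9 markers were called, and without pool 1 4 were called.

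Several genes of lymphocytes and NK cells were low in level and higher ipsilaterally. Of 12 T and NK cell markers 8 were tested and 6 rose (median 2.38), the same number as without pool 1. These 6 were Gzmb, Gzma, Klrb1c, Nkg7, Il7r and Lck. The panel of the 8 tested markers was at 4.70 to 5.55 ipsilaterally and at 2.74 to 3.34 contralaterally. In sham mice of 7 days it was at 3.81 to 4.98 and 3.28 to 4.54, so the contralateral level after tMCAO was mostly below that of sham mice. The T cell markers Cd3e, Cd3d, Cd3g and Cd8a did not pass the filter on low values and were not tested. Gzma, a granule protease of cytotoxic cells, was at 82, 168 and 67 normalized counts ipsilaterally and at 7, 15 and 10 contralaterally (3.13 ± 0.27, adjusted p = 1.58e-05). Its means in sham mice of 7 days were 41.3 ipsilaterally and 30.7 contralaterally, above all contralateral values after tMCAO. Gzmb was at 28, 63 and 23 against 0, 4 and 6 (3.44 ± 0.61), and Nkg7 at 38, 56 and 19 against 5, 3 and 7 (2.62 ± 0.51). Cd4 and Trac, the tested members that were not called, had log2 fold changes of -0.03 and -0.31. Of 7 B cell markers 4 rose, and 2 rose without pool 1. Cd79b, a chain of the B cell receptor, was at 35, 30 and 17 against 4, 5 and 7 (2.13 ± 0.37).

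Antigen presentation, complement and leukocyte receptor genes also rose. Of 22 genes of MHC class II and antigen presentation 12 rose (median 0.62), and 6 rose without pool 1. Cd74, the invariant chain, was at 996, 1355 and 684 normalized counts ipsilaterally and at 431, 342 and 399 contralaterally (1.32 ± 0.27). Ciita, the master regulator of class II genes, was at 20, 32 and 10 against 2, 7 and 3 (2.10 ± 0.47), a call lost without pool 1. Of 22 complement genes 6 rose, led by the integrin chains Itgax and Itgb2 and by C3 (1.70 ± 0.30), and the same number rose without pool 1. Of 24 leukocyte cytokine and scavenger receptors 11 rose.

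Of 22 chemokine ligands 6 rose, and 3 fell, a share close to the 11.1% of all genes. Ccl5, a ligand that attracts T cells and monocytes, was at 67, 111 and 33 normalized counts ipsilaterally and at 7, 10 and 11 contralaterally (2.65 ± 0.37). Ccl24 was at 17, 19 and 24 against 155, 57 and 72 (-2.07 ± 0.42), and Cxcl14 at 113, 76 and 167 against 852, 249 and 354 (-1.89 ± 0.28). Both were lower in every pair. Pf4, the third of these, is a platelet and macrophage chemokine and had a log2 fold change of -0.80 ± 0.18. Without pool 1, 2 chemokine genes were higher.

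Most genes of mitosis rose, at low levels. Of 27 members tested 18 rose and 0 fell, 24 were higher in all 3 pairs against 24.3% of all genes, and the median log2 fold change was 1.60. Mki67 was at 62, 87 and 72 normalized counts ipsilaterally and at 5, 12 and 4 contralaterally (3.34 ± 0.37, adjusted p = 6.96e-05). The chromosomal passenger kinase Aurkb was at 33, 25 and 17 and was listed at 0 in all contralateral libraries. Its partner Birc5, or survivin, was at 37, 35 and 24 against 1, 3 and 1 (3.69 ± 0.49). Top2a, the topoisomerase that untangles chromosomes, was at 131, 112 and 98 against 34, 8 and 10 (2.91 ± 0.39). The hemispheres did not overlap in Birc5 and Top2a, and the contralateral value of Top2a in pool 1 was the highest of the 3. The contralateral sham means were 12.7 for Mki67 and 11.7 for Top2a.

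Members such as Kif23 and Anln were not called, at 0.05 and 0.08. Without pool 1, 14 members of the mitosis list were called. Of 24 genes of DNA replication 5 rose (median 0.22), led by the thymidine kinase Tk1, at 44, 29 and 35 normalized counts ipsilaterally against 3, 4 and 1 (3.42 ± 0.48), and by Rrm2, at 48, 58 and 55 against 16, 9 and 11 (2.10 ± 0.46). Replication genes thus rose in a smaller share than mitotic genes, and this difference in shares was not tested. Of 18 cell cycle inhibitors and G1 cyclins E2f2 alone was called (2.04 ± 0.40).

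As many of these genes rose, their promoters were read in RefSeq (GRCm38.p6), in the 250 bases before the start site. The mitotic CCAAT box, CCAAT on either strand, was present in 13 of the 14 promoters of called mitosis genes in the table and in 34.5% of all 27025 promoters in the table. Aurkb, Ccna2, Kif20a and Tpx2 were not in it, and Birc5 was the called gene without the box. The cell cycle homology element TTTGAA on either strand was present in 7 of the 14, in 16.3% of all promoters and in 10.4% of the 11591 promoters of tested genes. Of the 23 promoters of tested mitosis genes, called or not, 18 held the CCAAT box and 8 held TTTGAA. Whether called and other members differ in these boxes was not tested. The E2F motif GCGGGAA was present in 0 of the 14, in 3.84% of all promoters and in 6.7% of the promoters of tested genes. It was present in 6 of 20 promoters of the tested replication genes. A match describes the letters of these windows and is no evidence of binding. The 100 bases before the start of 4 members, chosen after their values were seen to show the spacing of the boxes, are given 5′ to 3′ on the strand of the gene, with CCAAT and TTTGAA matches of either strand in capitals.
Top2a (chr11:99024190-99024289, minus strand): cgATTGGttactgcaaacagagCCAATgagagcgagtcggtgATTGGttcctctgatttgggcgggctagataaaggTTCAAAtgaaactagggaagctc
Cdk1 (chr10:69352913-69353012, minus strand): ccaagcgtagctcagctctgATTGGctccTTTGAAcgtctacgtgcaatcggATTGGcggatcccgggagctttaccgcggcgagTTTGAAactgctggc
Ccnb2 (chr9:70421555-70421654, minus strand): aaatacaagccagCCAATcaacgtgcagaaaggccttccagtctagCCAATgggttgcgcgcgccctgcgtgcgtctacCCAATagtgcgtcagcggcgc
Prc1 (chr7:80294351-80294450, plus strand): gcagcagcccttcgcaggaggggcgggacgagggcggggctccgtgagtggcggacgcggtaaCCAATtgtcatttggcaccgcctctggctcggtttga
Of these genes, Cdk1, the kinase that starts mitosis, was at 94, 68 and 75 normalized counts ipsilaterally and at 12, 9 and 22 contralaterally (2.46 ± 0.31). Ccnb2, its cyclin, was at 58, 29 and 34 against 7, 11 and 3 (2.45 ± 0.53). Prc1, a bundler of spindle microtubules, was at 51, 81 and 60 against 5, 26 and 19 (2.11 ± 0.44).

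Some interferon response genes rose by small amounts. Of 29 tested 10 were called higher and 0 lower, and 27 were higher in all 3 pairs against 24.3% of all genes, with a median log2 fold change of 0.55. Irf7, the transcription factor that amplifies interferon production, was at 3676, 2741 and 3160 normalized counts ipsilaterally and at 1509, 1710 and 1662 contralaterally (0.96 ± 0.22, adjusted p = 0.00711). Ifit3 was at 1913, 1424 and 2036 against 853, 918 and 1083 (0.90 ± 0.21). The hemispheres did not overlap in either gene. Cxcl10, an interferon-induced ligand of T cells, was at 90, 74 and 70 against 38, 22 and 27 (1.42 ± 0.45, adjusted p = 0.0335), a call lost when any of the 3 pools was left out. Irf7 and Ifit3 were not called without pool 1. Without pool 1, 4 of these genes were called, and under median centring 15.

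The interferon-stimulated response element, searched as GAAA, any 2 bases and GAAA again, was found on either strand in 5 of the 9 promoters of called interferon genes in the table and in 3.04% of all promoters. Of the 23 promoters of tested interferon genes, called or not, 13 held it, so that its share was alike in the called genes and the whole list. The PU.1 motif of myeloid genes, GAGGAAGT, was found in 2 of the 10 promoters of called Fc receptor and myeloid genes and in 2.44% of all. Isg15 and Oas1a are shown as members with such letters close to the start site, in capitals, in the 100 bases before it.
Isg15 (chr4:156200819-156200918, minus strand): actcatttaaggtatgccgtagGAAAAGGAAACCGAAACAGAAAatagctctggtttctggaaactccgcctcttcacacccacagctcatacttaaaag
Oas1a (chr5:120907526-120907625, minus strand): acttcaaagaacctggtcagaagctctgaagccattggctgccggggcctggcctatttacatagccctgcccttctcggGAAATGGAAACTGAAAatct
Isg15, a ubiquitin-like protein, was at 1460, 1331 and 1744 normalized counts ipsilaterally and at 642, 952 and 1070 contralaterally (0.79 ± 0.17). Oas1a, a sensor of double-stranded RNA with close paralogs that could share its reads, was at 440, 374 and 441 against 196, 298 and 281 (0.71 ± 0.19).

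**Figure D4:**
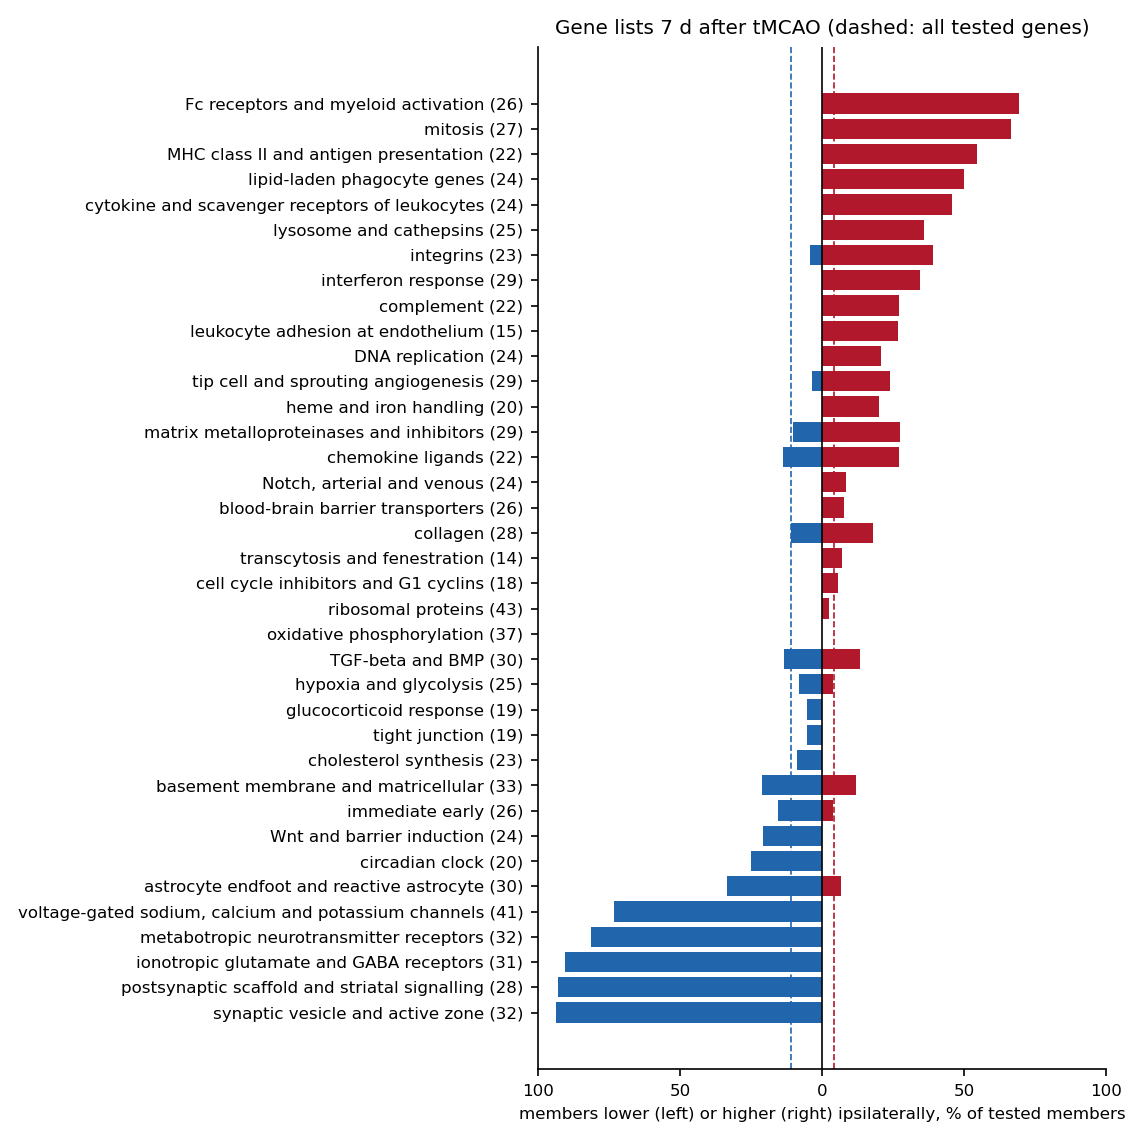
Share of tested members of each pathway or family list called higher (right, red) or lower (left, blue) in ipsilateral microvessels 7 days after tMCAO, in % on the x axis, with the number of tested members in parentheses. Dashed lines mark the shares among all tested genes, 4.26% higher and 11.1% lower; synaptic lists reached furthest to the left, and myeloid activation and mitosis furthest to the right.

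Genes of sprouting vessels moved mostly upwards where they were called. Of 29 genes of tip cells and angiogenesis 7 rose and 1 fell, and the same number of 7 rose without pool 1. Aplnr, the apelin receptor of growing vessels, was at 246, 389 and 207 normalized counts ipsilaterally and at 33, 72 and 38 contralaterally (2.56 ± 0.27, adjusted p = 4.72e-05). The ipsilateral mean of Aplnr was 98.0 in sham mice of 7 days and 140 in tMCAO mice of 24 h, and the contralateral libraries of 7 days after tMCAO lay below the contralateral sham mean of 101. Cxcr4, a chemokine receptor of tip cells and leukocytes, was at 357, 205 and 246 against 103, 55 and 70 (1.82 ± 0.16). Pgf, a ligand of the VEGF receptor Flt1, was at 1223, 727 and 1019 against 550, 329 and 340 (1.29 ± 0.14). Vegfa, which glial cells and neurons also make, was the member that fell, at 84, 102 and 65 against 320, 178 and 85 (-1.03 ± 0.25), a call lost without pool 1.

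Junction and transporter genes differed little between the hemispheres. Of 19 tight junction genes Cldn1 alone was called (-1.72 ± 0.53, adjusted p = 0.0325), at 13, 28 and 10 normalized counts against 92, 20 and 80, and without pool 1 or pool 3 it was not. Occludin, Ocln, was at 8089, 7234 and 8307 ipsilaterally and at 7003, 7699 and 10709 contralaterally (-0.08 ± 0.09, adjusted p = 0.557). Cldn5 had a log2 fold change of 0.45 ± 0.12 (adjusted p = 0.0136), inside the fold limit. Tested by limma against the hemisphere difference of sham mice of 7 days, Cldn5 was called higher (0.64, adjusted p = 0.0201). Its ipsilateral and contralateral means were 58400 and 66990 in these sham mice and 68900 and 50930 after tMCAO. Of 26 blood-brain barrier transporters 2 rose. The cholesterol exporter Abca1 was at 3592, 2227 and 2329 against 2173, 1456 and 1167 (0.78 ± 0.16), and the organic anion transporter Slco2b1 at 9456, 7608 and 6629 against 4613, 5326 and 4945 (0.66 ± 0.11), the latter not called without pool 1.

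Of 24 genes of Wnt signalling and barrier induction 5 fell, Sfrp1, Ndp, Dkk3, Wnt7b and Wnt7a, and 2 did so without pool 1. These are ligands and secreted modulators, of which Wnt7a, Wnt7b and Ndp are made by neural cells. Sfrp1 was at 11, 13 and 14 normalized counts ipsilaterally and at 93, 43 and 59 contralaterally (-2.21 ± 0.33), and Dkk3 at 203, 137 and 215 against 1030, 352 and 528 (-1.66 ± 0.21). Receptors and targets in the endothelium were not called. Of 15 genes of leukocyte adhesion 4 rose. P-selectin, Selp, was at 1660, 855 and 205 against 542, 200 and 16 (2.43 ± 0.55) and was not called without the mouse pool as a block. The von Willebrand factor Vwf was at 97222, 63555 and 84995 against 42952, 52254 and 48500 (0.76 ± 0.16, adjusted p = 0.00386), above all contralateral libraries but not called without pool 1. Pecam1, the adhesion molecule used as a vessel stain, had a log2 fold change of 0.22 ± 0.08 (adjusted p = 0.0649).

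The vessel matrix changed in selected members. Of 33 genes of basement membrane and matricellular proteins 4 rose and 7 fell. Lamb1, a laminin chain, was at 1342, 937 and 1166 normalized counts ipsilaterally and at 385, 358 and 366 contralaterally (1.62 ± 0.13, adjusted p = 1.21e-05). The proteoglycan perlecan, Hspg2, was at 6356, 4791 and 5589 against 2912, 3848 and 2786 (0.81 ± 0.13). Lama4, the endothelial laminin chain, was at 2728, 2419 and 2943 against 1398, 1788 and 1818 (0.70 ± 0.10) and was lost without pool 1. The members with the largest decreases, Acan, Tnr, Hapln1 and Ncan, belong to the matrix around neurons and had log2 fold changes of -2.21 to -1.75. Without pool 1, 2 of the list rose and 3 fell.

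Of 28 collagen genes 5 rose, and 3 fell, a share close to that of all genes. Col5a3 was at 227, 166 and 233 normalized counts ipsilaterally and at 103, 81 and 60 contralaterally (1.37 ± 0.21), and Col25a1, a collagen of neurons, was at 3, 4 and 3 against 82, 33 and 29 (-3.35 ± 0.40). Without the mouse pool as a block, 1 collagen gene rose and 2 fell. Of 23 integrin genes 9 rose, led by the leukocyte chains Itgax, Itgal and Itgb2. Itgal was at 299, 485 and 210 against 50, 83 and 35 (2.55 ± 0.17), and Itgb2 at 588, 699 and 421 against 133, 112 and 120 (2.19 ± 0.19). Itgb8, an integrin of astrocytes and neurons, fell (-1.39 ± 0.29).

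Of 29 genes of metalloproteinases and their inhibitors 8 rose, and 3 fell, a share close to that of all genes. Timp1, the tissue inhibitor of metalloproteinases, was at 398, 180 and 163 normalized counts ipsilaterally and at 148, 75 and 43 contralaterally (1.52 ± 0.24, adjusted p = 0.000622). Mmp9, a gelatinase that degrades basement membrane, was at 205, 161 and 55 against 103, 63 and 41 (0.91 ± 0.23, adjusted p = 0.0121) and was higher in each pair with overlap between pools, a call lost without pool 1 and without pool 2. Mmp2 and Timp2 were not called (0.50 and -0.06). The neural membrane-type metalloproteinases Mmp24, Mmp16 and Mmp17 fell. Without the mouse pool as a block 2 of the 8 increases were called, and those of Timp1 and Mmp9 were not; without pool 1, 4 were called, among them Timp1.

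Further lists showed few calls, to be read beside the 4.26% of all tested genes called higher and the 11.1% called lower. Of 20 heme and iron genes 4 rose, among them haptoglobin, Hp (1.76 ± 0.24), and Steap3, a ferrireductase, at 932, 782 and 546 normalized counts against 245, 359 and 321 (1.27 ± 0.19). In the TGF-beta and BMP list 4 of 30 rose and 4 fell, with Smad1 at 0.72 ± 0.10 and the receptor Bmpr1a at -0.85 ± 0.14. Of 24 Notch, arterial and venous genes the ligand Dll1 and Vwf rose. Of 20 circadian clock genes 5 fell, and 2 did so without pool 1. Of 23 cholesterol synthesis genes 2 fell, Sqle and Hsd17b7 (-0.66 and -0.60), while 15 were lower in all 3 pairs against 23% of all genes. In 25 hypoxia and glycolysis genes the neuronal glucose transporter Slc2a3 and Vegfa fell and Ankrd37 rose. The 37 genes of oxidative phosphorylation had a median log2 fold change of 0.04, with 6 higher and 1 lower in all 3 pairs. Of 43 ribosomal protein genes Rps19 alone passed the fold limit (0.59 ± 0.09), and 34 were higher in all 3 pairs, against 24.3% of all genes. The Rps19 call was lost without pool 1 (0.46), and 15 members were called without pool 3. Of 14 transcytosis genes Ager was called higher, and of 19 glucocorticoid response genes Plin4 lower; both calls were lost without pool 1. The housekeeping gene Hprt had a log2 fold change of -0.12 ± 0.09.

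As a control for the surgery, the hemisphere difference after tMCAO was tested against that after sham surgery at 7 days. Relative to sham, 380 genes (2.38%) were higher and 1572 genes (9.84%) were lower. Without pool 1 these counts were 199 and 1078, and without the mouse pool as a block 190 and 1383. Mki67 ranged from 11 to 14 ipsilaterally and from 10 to 16 contralaterally in sham mice, and the difference between the hemisphere differences was 3.29 on the log2 scale (adjusted p = 0.00162). For Tbr1 the sham means were 93.7 and 69.0 and this value was -4.91 (adjusted p = 9.8e-05). Mki67 and Tbr1 were among the genes named for the largest differences from sham, which fixed their direction. Relative to sham, 9 genes of the myeloid activation list were higher, 12 of the mitosis list, 11 of the interferon list and 4 of the antigen presentation list. Microglia markers kept 3 of 3 increases and lysosome genes 7 against 9 between the hemispheres. Other lists kept fewer, with 2 macrophage and monocyte markers against 6, 1 neutrophil marker against 7 and 3 T and NK cell markers against 6. Complement genes and chemokine ligands each had 2 higher against 6. Ccr2, Itgam, Lyz2 and Cd68 were not called relative to sham. Of the synaptic vesicle list 29 were lower. Gpnmb had a sham mean of 55.3 ± 56.6 (SD, n = 3) ipsilaterally and 6.67 ± 1.53 contralaterally, so that some sham libraries also carried it, and its value against sham was 3.16 (adjusted p = 0.0392). Treml4 had ipsilateral and contralateral sham means of 18.3 and 7.33, and its value against sham, 1.93, was not called by limma (adjusted p = 0.0796). Ccl24, at -3.52, had ipsilateral and contralateral sham means of 298 and 83.0.

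The difference at 7 days was then set against that at 24 h, which came from other mice. Here 797 genes (4.99%) were higher and 1508 genes (9.44%) lower at 7 days, on the log2 scale of the hemisphere difference. Median centring of the libraries moved the median of all genes by 0.13 and gave 1361 higher and 1240 lower, so that the share of higher genes among the called ones went from 34.6% to 52.3%. Without the mouse pool as a block, 311 were higher and 1099 lower. Without pool 1 of the 7 day stroke mice, 617 were higher and 1104 lower.

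Neuronal lists were lower at 7 days than at 24 h. The neuron markers had a median log2 fold change of -0.73 at 24 h and -3.08 at 7 days, and 13 of 14 differed between the times. For synaptic vesicle genes these medians were -0.60 and -2.44, and 25 of 32 differed. Mitosis genes went from a median of 0.43 at 24 h to 1.60 at 7 days, with 7 of 27 called higher at 7 days, among them Mki67, Ccna2 and Birc5. Ccna2, a cyclin of S phase and mitosis, was at 67, 79 and 43 normalized counts ipsilaterally and at 12, 10 and 4 contralaterally at 7 days, and its difference between the times was 2.27 (adjusted p = 0.00871). Aplnr had a log2 fold change of 0.10 at 24 h, and the difference between the times was 2.46 (adjusted p = 0.00116). Ccna2 and Aplnr were among the genes named for the largest increases from 24 h to 7 days, which fixed their direction. Trem2 went from 0.06 to 1.65 (difference 1.59, adjusted p = 0.00113).

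Barrier genes stood closer to 0 at 7 days than at 24 h. The 26 transporters had a median log2 fold change of -0.74 at 24 h and 0.03 at 7 days, and 16 were called higher at 7 days than at 24 h, with 0 in the other direction. The glucose transporter Slc2a1 and the efflux pump Abcb1a, both named after their values were seen, went from -0.49 to 0.11 and from -1.03 to 0.17. Of the Wnt list 11 of 24 were higher at 7 days, among them the targets Axin2 and Apcdd1, and 2, Dkk3 and Dkk2, were lower. Tight junction genes were called in 2 of 19, Tjp1 and Ildr2, both higher at 7 days.

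Acute response genes took the other course. Il6, Lif, Csf3, Il11 and Cxcl3, cytokines and a chemokine of the acute phase, had log2 fold changes of 5.04 to 5.89 at 24 h. At 7 days theirs were -0.57 to 0.43 and none was called. Cxcl3 was listed at 1, 0 and 0 ipsilaterally and 2, 0 and 0 contralaterally at 7 days. Tnc, a matricellular protein of injured tissue, went from 5.43 to 0.22, at 29, 23 and 28 normalized counts against 34, 18 and 19 at 7 days. Tnc, Il6, Lif, Csf3, Il11 and Cxcl3 were named because they had the largest decreases from 24 h to 7 days. Their course was therefore fixed by the choice. Neutrophil markers went from a median of 2.45 to 1.03, and 7 of 9 were lower at 7 days. Timp1 went from 3.57 to 1.52 (difference -2.04, adjusted p = 0.00201) and Mmp9 from 2.58 to 0.91 (difference -1.66, adjusted p = 0.00465). Of the metalloproteinase list 10 of 29, of the chemokine list 9 of 22 and of the cholesterol synthesis list 10 of 23 were lower at 7 days. For myeloid activation genes the medians were 1.02 and 1.21, and 1 of 26 was called as different between the times.

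**Figure D5:**
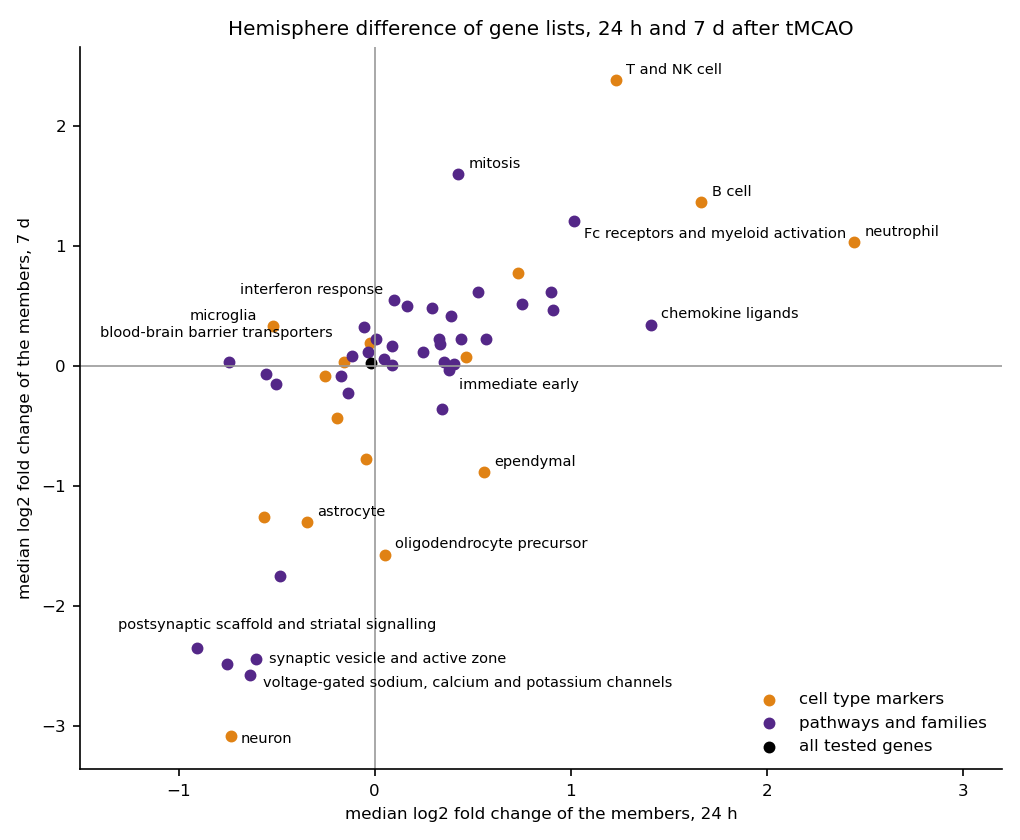
Median log2 fold change of ipsilateral over contralateral microvessels for each gene list at 24 h (x axis) and 7 days (y axis) after tMCAO (orange, cell type markers; purple, pathways and families; black, all tested genes). The median of the mitosis list was higher at 7 days than at 24 h and those of neutrophil markers and neuronal lists lower, the median of T and NK cell markers was higher with no member called as different between the times, and barrier transporters moved from -0.74 to 0.03.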

How the data were processed

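Microvessels of pooled mouse hemispheres were sequenced by the authors as stranded mRNA libraries. Per the submitters' processing notes, reads were checked with FastQC, aligned with STAR 2.5.2b to mm10, counted with featureCounts 1.5.1 and normalized with DESeq2 1.6.2. The methods text names other versions of STAR and DESeq2, and states that outlier samples had been excluded. The deposited values are a score, normalized counts divided by a size factor and rounded by the authors to whole numbers, so count tests were not run.

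Values were analysed in R 4.3.3 with limma 3.58.1 and in Python 3.11.15 with pandas 2.3.3 and matplotlib 3.10.9. Log2(normalized count + 1) of the 15982 of 17270 genes with a mean above 5 over 24 libraries entered a limma fit of all 24 libraries that let the variance follow the mean and held the mouse pool as a fixed block. The Benjamini-Hochberg method adjusted the p-values over all tested genes. The numbers pair hemispheres because the library titles put the pool number before the hemisphere. In a check of the residuals, 12 of 12 ipsilateral libraries correlated best with their own number, and 9 of 12 same-number correlations were above 0.1. For the 7 day stroke pools they were 0.06, 0.31 and 0.06. The fit was tested on simulated data.

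Named genes were the 12 largest increases and decreases without overlap and with a mean of at least 50, up to 4 called members per list and direction, the leading cell type markers, genes the study names, and the 6 largest differences from sham and from 24 h in each direction. Some named genes are not reported here. Members and lists were chosen with earlier results of these data known. Promoters were read from RefSeq GRCm38.p6, which held 11591 of the tested genes. Libraries of 3 pooled hemispheres carry the spread between pools; depth in reads is not given by the files. Alternatives covered the pseudocount, the filter, median centring, the block, the libraries in the fit and each pool left out.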

Additional observations from a re-analysis of the deposited data

Results flagged for a closer look

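The results below were flagged because the hemisphere difference 7 days after tMCAO differed, by the limma interaction term, from that after sham surgery or from that at 24 h. Against sham, 380 genes were higher and 1572 lower, and against 24 h, 797 were higher and 1508 lower. The largest log2 differences from sham among named genes were Cd5l at 5.15, AA467197 at 3.78, Dapk2 at 3.54, Gm6058 at 3.35, H19 at 3.30 and Mki67 at 3.29. The opposite end held Plppr5 at -5.08, Kcnj9 and Kcnj3 at -5.03, Egr4 at -4.95, Tbr1 at -4.91 and Gpr158 at -4.75. Against 24 h the highest values were Cd5l at 5.92, Gpnmb at 2.91, Aplnr at 2.46, Gm15441 at 2.46, Ccna2 at 2.27 and 2810029C07Rik at 2.25. Gm15441 is annotated as an antisense gene and 2810029C07Rik as a bidirectional promoter RNA, and the strand setting of the counting was not given in the sources used here. The lowest values were Cxcl3 at -6.09, Csf3 at -5.78, Lif at -5.60, Il6 at -5.48, Tnc at -5.22 and Il11 at -5.14. With 3 libraries per group no single library was tested as an outlier.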

How the results depend on the processing

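The pseudocounts and the filters on low values kept every count of called genes within 1.5 times its reported value. Without the replicate block, that is without the pairing by pool, 485 genes were higher and 1595 lower 7 days after tMCAO, 190 and 1383 against sham, and 311 and 1099 against 24 h. Without the block and without the contralateral library of pool 1, 376 genes were higher and 1152 lower. With the compared libraries alone, 296 were higher and 540 lower, 165 and 787 against sham, and 525 and 793 against 24 h. Without a limit on the fold change 1634 genes were higher, 699 against sham and 1466 against 24 h. Median centring gave 585 higher against sham, and 1361 higher with 1240 lower against 24 h, which turned the balance of that comparison from more lower to more higher genes. Leaving out 1 replicate number in all groups, or 1 pool of the 7 day stroke mice, gave 392 to 762 higher and 957 to 1957 lower. Against sham the ranges were 129 to 587 and 672 to 1935, and against 24 h 329 to 889 and 493 to 1956. Leaving out stroke pools singly, and the fit without the block and that contralateral library, were chosen after seeing the data. The counts between sham hemispheres were 0 by limma under the alternatives run for them, which did not include leaving out single stroke libraries or pools. With 3 pools per group and 1 contralateral library apart, counts of calls are uncertain.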
